A study of Mus musculus with 2 samples.

Results

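The genes described here are 10 imprinted genes that lie outside the Igf2 and H19 locus: Meg3, Rian, Dlk1, Peg3, Mest, Plagl1, Grb10, Kcnq1ot1, Ndn and Sgce. They were listed by name, without a measured value beside them but with earlier results of these data known. Of the 10, 9 were matched to 1 row each among the 27999 features of the count tables. Rian was not analysed here. The cells came from whole hearts of newborn mice at postnatal day 0 (P0), strain C57BL6+ICR, dissociated with trypsin and captured by the droplet method 10x Chromium Single Cell 3' v2. All cells belong to 1 untreated group and 1 biological sample, loaded as technical replicates 1 and 2, so every pair of values below repeats the loading and sequencing and not the animal. The series used these cells as a reference map of the heart. Strain alleles were not separated in the counts, so each value is the sum over both parental copies.

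Imprinted genes are transcribed mainly or only from the copy inherited from 1 parent, because DNA methylation set in the egg or sperm marks a control region nearby. Many act on fetal growth, and most are strongest before and around birth and decline afterwards. Within the list, Dlk1, Peg3, Mest, Plagl1, Kcnq1ot1, Ndn and Sgce are known as paternally expressed genes, while Meg3, Rian and, in most tissues, Grb10 are maternally expressed. Igf2, from its own imprinted locus, encodes a fetal growth factor to which several of these genes are functionally tied.

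The tables held 5888 and 6047 barcodes with 34668956 and 33871582 counts. Barcodes with at least 500 detected genes and haemoglobin genes below 0.5% of counts were kept, which left 8601 of 11935 barcodes. Marker genes then placed 7957 of them in 7 classes: 5462 cardiomyocyte, 1180 fibroblast, 637 vascular endothelial, 207 endocardial, 201 pericyte, 139 smooth muscle and 131 macrophage barcodes. The marker cuts were set after marker counts had been seen, and each class name rests on those markers alone, so it stands for cells like that type. A further 40 epicardial barcodes (15 and 25) fell under the minimum of 30 per technical replicate and are given only as values. Another 366 barcodes met more than 1 gate and stayed out, no doublet caller was run, and 53 barcode sequences occurred in both replicates. The fibroblast markers summed to 22616 CPM (counts scaled to a total of 1000000 per class) in fibroblasts and 125 in cardiomyocytes. They stood at 1976 CPM in smooth muscle, 1714 in pericytes and 998 in endocardium, where all 9 of them were above 0. Their part in the smooth muscle, pericyte and endocardial values was not tested. Median depth ran from 4039 counts in pericytes to 9486 in vascular endothelium. Mitochondrial genes took a median 36.6% of the counts of cardiomyocyte barcodes and between 3.17% and 5.35% in the other classes, so a CPM value in cardiomyocytes is low relative to the same value without mitochondrial counts.

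The members are scattered over the genome (positions from the GENCODE annotation of GRCm38). Dlk1 (chromosome 12, 109452823 to 109463336) and Meg3 (chromosome 12, 109541001 to 109571726) are neighbours on the plus strand, with the host transcripts Rian and Mirg downstream. Mest is on chromosome 6, 30723547 to 30748465, and Sgce on chromosome 6, 4674350 to 4747207. Kcnq1ot1 (143203458 to 143296549), Ndn (62346569 to 62350262) and Peg3 (6703892 to 6730431) are on chromosome 7, Plagl1 on chromosome 10 (13060504 to 13131694) and Grb10 on chromosome 11 (11930508 to 12038683). Kcnq1ot1 runs antisense through Kcnq1, Mest overlaps Copg2 on the opposite strand, and Meg3 overlaps Gm26906. The sources used here do not say whether counting used the strand, so counts of these overlapping pairs are uncertain.

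Control regions of imprinted genes carry the letters TGCCGC, the core that the zinc finger protein ZFP57 binds when it is methylated, and several sit at the promoter. The 250 bases upstream of a RefSeq transcript start (GRCm38.p6) could be read for 8 of the 9 analysed members, in 12 windows. TGCCGC or its reverse complement GCGGCA occurred in 4 of these windows, which belonged to 3 members, Meg3, Mest and Plagl1. The 2 Mest windows among them start 3 bases apart and hold the same matches. Among 32851 such windows of all genes, 8.68% held it, and the median window had 6 CpG dinucleotides. Windows of 4 members are printed because these genes carry the contrasts below: Mest led the vascular endothelium, Plagl1 led the endocardium, and Meg3 and Dlk1 are neighbours with like profiles. Capitals mark TGCCGC or GCGGCA on the plus strand of the gene. The Mest window (chr6:30737800-30738049, plus strand) held 2 matches and 14 CpG, the Plagl1 window (chr10:13090582-13090831, plus strand) 1 match and 19 CpG, the Meg3 window (chr12:109540746-109540995, plus strand) 1 match and 10 CpG, and the Dlk1 window (chr12:109452573-109452822, plus strand) no match and 8 CpG. A match describes the letters alone, since no methylation or binding was measured.
Mest: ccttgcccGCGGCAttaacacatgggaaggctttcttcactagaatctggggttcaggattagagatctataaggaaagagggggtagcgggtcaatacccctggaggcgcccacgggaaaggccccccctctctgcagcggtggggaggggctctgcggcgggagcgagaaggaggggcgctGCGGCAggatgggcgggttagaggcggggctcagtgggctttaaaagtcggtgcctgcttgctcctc
Plagl1: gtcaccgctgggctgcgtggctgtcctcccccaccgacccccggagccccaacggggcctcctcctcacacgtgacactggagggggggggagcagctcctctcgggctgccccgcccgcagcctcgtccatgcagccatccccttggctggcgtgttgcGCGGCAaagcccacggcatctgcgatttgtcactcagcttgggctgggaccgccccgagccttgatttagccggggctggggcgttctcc
Meg3: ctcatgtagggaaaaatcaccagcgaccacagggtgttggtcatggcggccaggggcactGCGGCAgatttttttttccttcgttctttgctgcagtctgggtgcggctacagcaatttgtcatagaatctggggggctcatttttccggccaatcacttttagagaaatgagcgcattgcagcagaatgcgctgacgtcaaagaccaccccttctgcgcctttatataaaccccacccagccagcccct
Dlk1: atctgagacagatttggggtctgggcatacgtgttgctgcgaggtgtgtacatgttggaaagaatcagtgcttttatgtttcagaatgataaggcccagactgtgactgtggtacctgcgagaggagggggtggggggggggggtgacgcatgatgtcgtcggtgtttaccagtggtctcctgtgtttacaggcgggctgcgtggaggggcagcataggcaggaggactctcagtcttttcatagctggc

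Meg3, Dlk1, Ndn and Sgce were highest in pericytes and fibroblasts. Meg3, a long non-coding RNA, stood at 2625 and 2012 CPM in pericytes and at 2309 and 2334 CPM in fibroblasts, in technical replicates 1 and 2. Smooth muscle held 1017 and 966 CPM, and cardiomyocytes 60.9 and 52.9 CPM. Pericytes and fibroblasts could not be ordered for Meg3 (ratio 1.01, 95% interval 0.965 to 1.06, counting error only), whereas fibroblasts exceeded smooth muscle 2.34 times (2.16 to 2.53). Endocardial and vascular endothelial barcodes held 52.3 and 24.2 CPM, and macrophages 9.72 CPM from 7 counts, so pericytes were 241 times above macrophages (117 to 601). The widest step in its order was from smooth muscle to cardiomyocytes, 17.4 times (15.9 to 18.99), so Meg3 set the stromal and mural classes apart from heart muscle, endothelium and macrophages. With mitochondrial and haemoglobin counts removed this step was smaller, at 1046 CPM in smooth muscle and 88.5 CPM in cardiomyocytes.

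Nearly every fibroblast barcode held Meg3. It was counted in 96.9% of fibroblast, 99.5% of pericyte and 13% of cardiomyocyte barcodes. In macrophages, which should lack it, the share was 3.05%, at a median depth of 4904 counts against 5569 in fibroblasts. With each barcode thinned to 2000 counts, the shares were 88.3% in fibroblasts, 90.4% in pericytes, 6.97% in cardiomyocytes, 3.94% in vascular endothelium and 0.787% in macrophages. RNA released from broken cells can give counts to any class. Cardiomyocytes and macrophages held the collagen gene Col1a1 at 0.507% and 0.492% of its fibroblast level, and Col3a1 at 0.510% and 1.02%. Both are markers of the fibroblast gate, so barcodes rich in them tended to be left out of the other classes. For Meg3 the same percentages were 2.46% and 0.419%. Relative to fibroblasts, the cardiomyocyte value of Meg3 was above that of Col1a1, and the macrophage value was not. Because of the gate, this comparison cannot size released RNA, whose part in the Meg3 values was not tested.

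Dlk1 encodes a membrane protein related to Notch ligands that restrains fat cell differentiation. It was present at 504 and 402 CPM in pericytes and at 354 and 409 CPM in fibroblasts. Smooth muscle held 52.6 and 75.8 CPM, and cardiomyocytes 2.52 and 3.44 CPM. The 2 highest classes overlapped between technical replicates, and fibroblasts stood 5.96 times above smooth muscle (4.40 to 8.29). Dlk1 was far patchier than its neighbour: it was found in 33.6% of fibroblast and 53.2% of pericyte barcodes, or 24.2% and 43.1% after thinning. The 10% of fibroblast barcodes richest in Dlk1 held 75.0% of its fibroblast counts. Across the 7 classes and both technical replicates, Meg3 and Dlk1 had a Pearson r of 0.95 on log2(CPM+10), a description over 14 points that share libraries and depth.

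Ndn encodes necdin, a growth-restraining protein of the MAGE family from the Prader-Willi region. Its levels were 192 and 127 CPM in pericytes, 148 and 177 CPM in fibroblasts, and 61.4 and 129 CPM in smooth muscle. Cardiomyocytes held 12.5 and 13.2 CPM, and macrophages 5.09 and 6.11 CPM. Pericytes and fibroblasts overlapped between technical replicates. The intervals also did not order endocardium (35.4 CPM) against vascular endothelium (26.7 CPM), or cardiomyocytes against macrophages. Sgce encodes epsilon-sarcoglycan, a membrane protein of the dystrophin-linked complex. It was the flattest of this group, with 89.1 and 110 CPM in fibroblasts, 91.8 and 105 CPM in pericytes, and 74.2 and 76.5 CPM in vascular endothelium. Endocardial and smooth muscle barcodes followed at 64.8 and 57.7 CPM and could not be ordered. Cardiomyocytes were lower at 20.3 CPM, 2.84 times below smooth muscle (2.00 to 3.94). With mitochondrial and haemoglobin counts removed this gap was smaller, at 31.4 CPM in cardiomyocytes and 60.8 CPM in smooth muscle.

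Mest was the endothelial gene of the list. It encodes a hydrolase-like protein linked to fetal and adipose growth. Vascular endothelium held 2225 and 2267 CPM, against 747 and 572 CPM in endocardium and 531 and 592 CPM in fibroblasts. Pericytes followed at 420.4 and 439 CPM, cardiomyocytes at 113 and 127 CPM, and smooth muscle at 29.2 and 44.2 CPM. The vascular endothelial level was 3.38 times the next class (3.19 to 3.59; 2.98 and 3.96 in the technical replicates). Of all genes tested, 1.66% led the vascular endothelium. Mest was counted in 97.6% of vascular endothelial barcodes, and 94.5% after thinning, and its counts were spread evenly, since the richest 10% of barcodes held 15.7% of them. The overlapping gene Copg2 stood at 32.1 CPM in vascular endothelium. The 2 mural classes, pericytes and smooth muscle, did not overlap for Mest, unlike smooth muscle and macrophages, which did.

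Plagl1 and Kcnq1ot1 led the endocardium, the inner lining of the heart. Plagl1, a zinc finger transcription factor that binds targets among other imprinted genes, reached 1067 and 1107 CPM there. Cardiomyocytes came next at 117 and 116 CPM, vascular endothelium at 109 and 107 CPM, and fibroblasts at 56.3 and 55.7 CPM. The endocardial level was 9.31 times that of cardiomyocytes (8.83 to 9.83; 9.14 and 9.51 in the technical replicates), and 6.37 times with mitochondrial and haemoglobin counts removed. It was found in 94.2% of endocardial barcodes, or 79.5% after thinning. Vascular endothelium, which shares the general endothelial markers with the endocardium, was thus near pericytes for Plagl1, and near cardiomyocytes with mitochondrial counts included. With mitochondrial and haemoglobin counts removed, the levels were 113 CPM in vascular endothelium, 98.6 CPM in pericytes and 181 CPM in cardiomyocytes.

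Kcnq1ot1, a long non-coding RNA that silences neighbouring genes such as the cell cycle inhibitor Cdkn1c on the paternal copy, stood at 412 and 497 CPM in endocardium. Pericytes held 182 and 172 CPM, fibroblasts 169 and 181 CPM, and vascular endothelium 146 and 148 CPM. The endocardium was 2.56 times above pericytes (2.16 to 3.05; 2.27 and 2.90). Under a stricter marker gate this ratio was 2.12 and Kcnq1ot1 no longer met the rule for leading a class, which asks for 2 times the next class in both technical replicates. Macrophages kept 86.5 and 104 CPM, above the cardiomyocytes at 61.3 and 66.0 CPM, but this step rested on mitochondrial counts, since without mitochondrial and haemoglobin counts the levels were 98.3 CPM in macrophages and 98.5 CPM in cardiomyocytes. Kcnq1, the coding gene it overlaps, had its highest level in cardiomyocytes (22.5 CPM), where Kcnq1ot1 was far below its endocardial level.

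Neither Peg3 nor Grb10 led a class. Peg3, a zinc finger protein of fetal growth and metabolism, stood at 377 and 362 CPM in endocardium and 336 and 347 CPM in fibroblasts. Cardiomyocytes held 118 and 122 CPM, vascular endothelium 67.9 and 79.4 CPM, pericytes 30.6 and 58.8 CPM, and smooth muscle 55.5 and 25.3 CPM. The endocardial and fibroblast levels differed 1.08 times, with an interval of 0.994 to 1.18. Pericytes and smooth muscle overlapped. Peg3 therefore set fibroblasts above pericytes in both technical replicates, and Meg3, Dlk1, Ndn and Sgce did not.

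Grb10 encodes an adaptor that binds the insulin and IGF receptors and dampens their signal. It was highest in cardiomyocytes, at 354 and 347 CPM, with 280.0 and 346 CPM in endocardium, 228 and 232 CPM in vascular endothelium and 221 in both replicates of fibroblasts. The step from cardiomyocytes to endocardium was 1.13 times (1.04 to 1.23). This order depended on the counts included: the ratio was 1.65 with mitochondrial and haemoglobin counts removed, and 0.748 among barcodes with at most 20% mitochondrial counts. Smooth muscle and pericytes held 196 and 167 CPM, and macrophages 11.1 CPM, 15.03 times below pericytes (7.44 to 35.5).

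**Figure D1:**
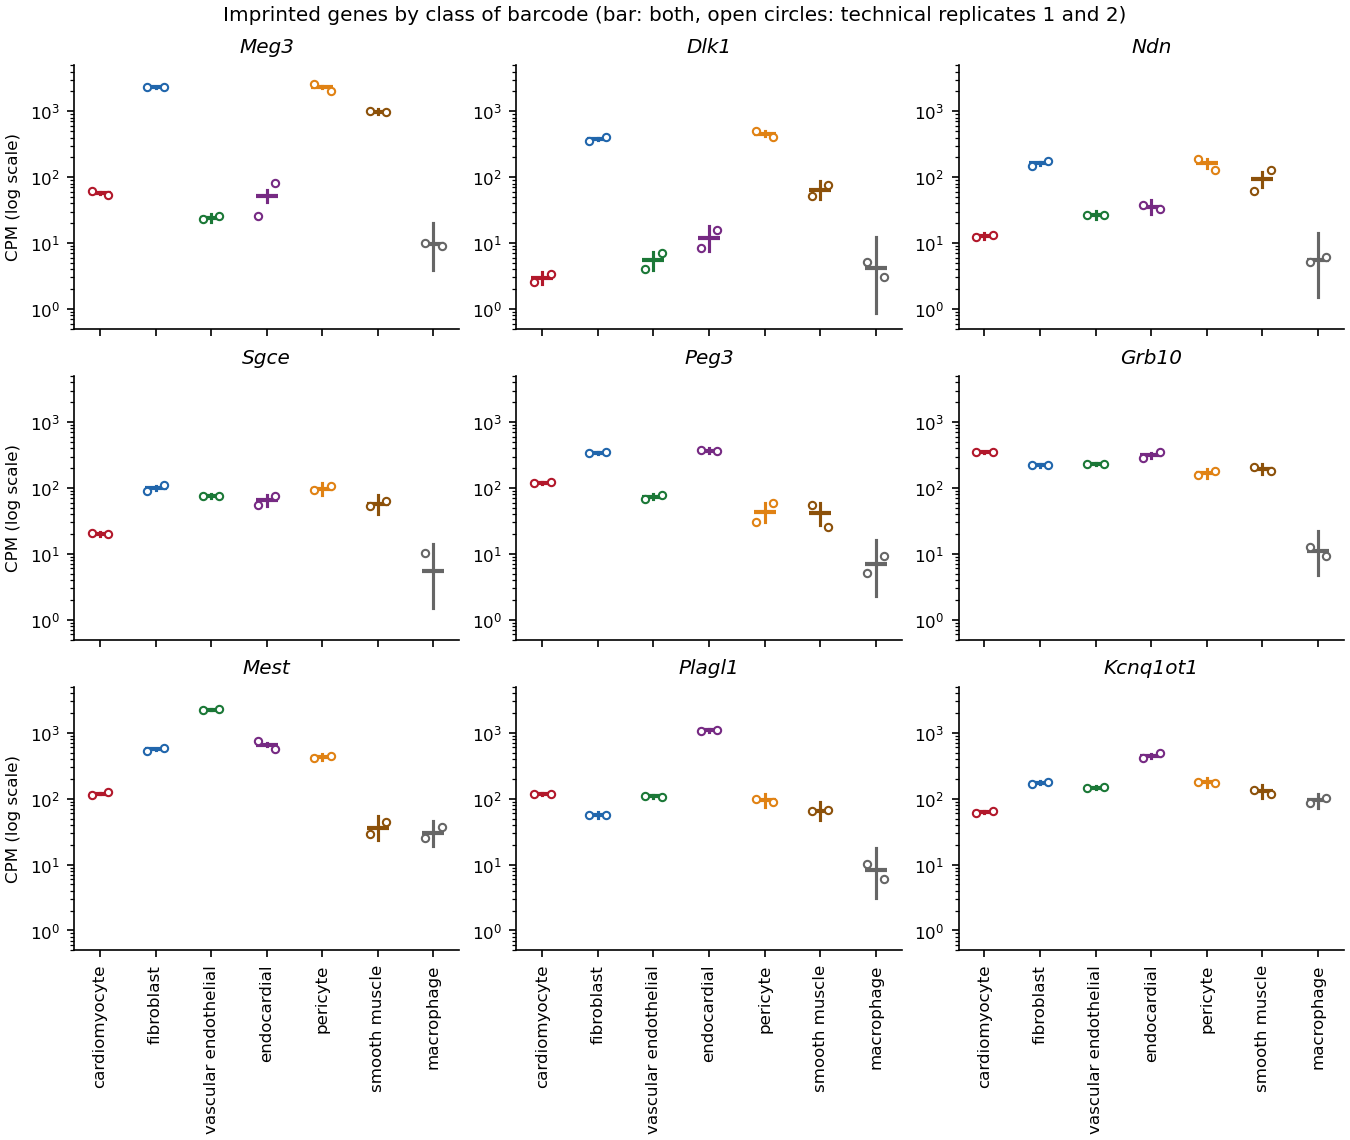
Level of each analysed member in the 7 marker-gated classes, as CPM of summed counts on a log axis: horizontal bars are both technical replicates together, vertical lines the 95% counting interval, and open circles technical replicates 1 and 2. Mest is highest in vascular endothelium, Plagl1 and Kcnq1ot1 in endocardium, and Meg3, Dlk1 and Ndn in pericytes and fibroblasts; Sgce in macrophages of replicate 2 was 0 and lies off the axis.

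Of the 9 analysed members, 3 led a class, or 33.3%, where the same rule over all 12325 genes tested gave 1752, or 14.2%. Macrophages were the lowest class for 7 of the 9 members and for 25.4% of all genes tested, and cardiomyocytes for the other 2 members, Dlk1 and Kcnq1ot1, and 35.5% of all genes. Without mitochondrial and haemoglobin counts, these 2 were also lowest in macrophages, by a small step (Dlk1 4.33 against 4.58 CPM). The median ratio of the highest to the next class was 1.13 over the members and 1.30 over all genes tested. The share leading a class was thus above that of all genes and the median ratio below it, and both describe 9 genes only. These 9 were listed with earlier results of these data known.

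A wider list of 65 other imprinted genes, also chosen with earlier results known, gave 61 matched and 44 with enough counts. Of those 44, 9 led a class (20.5%). In endocardium these were Igf2, the fetal growth factor (3478 CPM, 9.09 times the next class), H19, its non-coding neighbour (9150 CPM, 7.62 times), Igf2r, the receptor that clears Igf2 (691 CPM, 2.99 times), its antisense RNA Airn (314 CPM, 3.28 times) and Phactr2 (429 CPM, 4.29 times). Phactr2 (13207717 to 13474412) lies close to Plagl1 on chromosome 10. In cardiomyocytes they were Ddc (99.4 CPM, 15.2 times), Herc3 (63.5 CPM, 3.80 times) and Kcnq1 (2.27 times), and in fibroblasts the proteoglycan Dcn (4055 CPM, 11.1 times). Cdkn1c was highest in endocardium at 655 CPM but only 1.68 times above fibroblasts. The endocardium was thus led by 2 of the 9 members and 5 of the 44 other imprinted genes, and by 1.68% of all genes tested. Mirg, downstream of Meg3, followed its neighbour at low level, with 15.6 CPM in pericytes, 14.7 in fibroblasts and 0.986 in cardiomyocytes.

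The 40 epicardial barcodes held high levels of several members. Peg3 stood at 1003 and 549 CPM there, Meg3 at 2652 and 1628 CPM, and Ndn at 225 CPM. Mest was at 65.7 CPM, below fibroblasts. These values rest on 15 and 25 barcodes and were not ordered against the other classes.

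Co-detection in single barcodes was counted after thinning each barcode to 2000 counts. Of endocardial barcodes, 69.3% held 3 or more of the 9 analysed members (62.5 to 75.5; 67.0% and 71.6% in the technical replicates). The share was 64.9% in fibroblasts (62.1 to 67.6; 63.4% and 66.5%) and 64.5% in pericytes (57.4 to 71.1; 63.1% and 66.3%). Vascular endothelium reached 28.9%, smooth muscle 25.7% and cardiomyocytes 10.8%. The intervals of endocardium, fibroblasts and pericytes overlapped, and all 3 were above those of the remaining compared classes. In macrophages 1 of 127 barcodes reached 3 members, and 72.4% held none. A single fibroblast barcode held all 9. Without thinning the shares were higher, at 96.1% in endocardium, 90.8% in fibroblasts, 83.05% in vascular endothelium, 46.4% in cardiomyocytes and 3.82% in macrophages. Thinning to 1000 counts with mitochondrial and haemoglobin counts removed gave 39.6%, 38.3%, 12.6%, 6.51% and 0% in the same order, and 30.8% in pericytes and 5.04% in smooth muscle. Smooth muscle was thus above cardiomyocytes in the first count and below them in this one, while endocardium, fibroblasts and pericytes were again the 3 highest of the 7 classes.

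**Figure D2:**
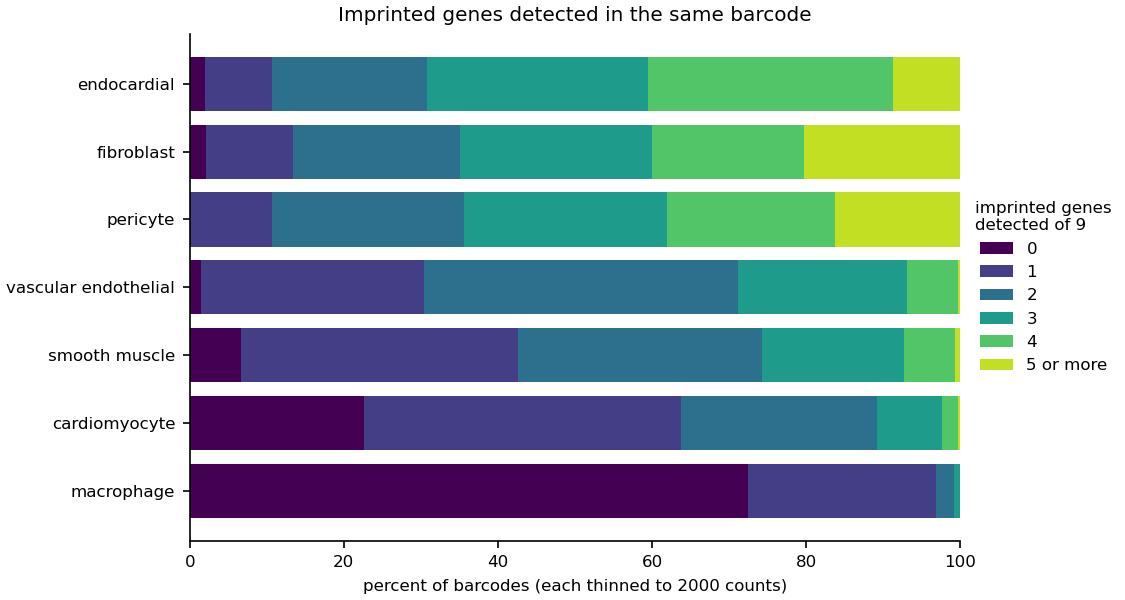
Stacked bars give the percent of barcodes of each class (x axis) in which 0, 1, 2, 3, 4 or at least 5 of the 9 analysed members had a count, after thinning to 2000 counts. Endocardial, fibroblast and pericyte barcodes most often hold 3 or more, and macrophage barcodes mostly hold none.

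Which members made up a set differed by class. In vascular endothelium Mest was near universal, in endocardium Plagl1 was, and in fibroblasts and pericytes Meg3 was. Fibroblasts and pericytes thus shared their most frequent member, and endocardium had another.

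Within fibroblasts, most pairs of members were found in the same barcode more often than by their separate frequencies, as measured by the odds ratio of detection. Of 36 pairs of members, 31 had an odds ratio above 1, with a median of 1.40. All pairs of genes within the detection range set for pairs had a median of 1.02 in fibroblasts, with 52.7% above 1. These background pairs were not matched to the member pairs in detection rate, and the part of detection rate in the difference was not tested. In both technical replicates apart, the second member was more frequent among barcodes with the first for 24 of the 36 pairs. The share of all gene pairs meeting this stricter rule was not counted, so the 24 have no background. Dlk1 took part in the strongest ones, and all 8 of its pairs were above 1. Mest was found in 71.1% of Dlk1-positive and 39.9% of Dlk1-negative fibroblasts, an odds ratio of 3.68 (69.3% against 40.5% in technical replicate 1, 72.9% against 39.2% in replicate 2). Dlk1 and Plagl1 went together in the same way (17.1% against 6.14%, odds ratio 3.16). So did the neighbours Meg3 and Dlk1, with Dlk1 in 26.0% of barcodes with Meg3 and 10.3% of those without. Meg3 and Sgce had the lowest odds ratio, 0.846. Without mitochondrial and haemoglobin counts, 29 of 36 pairs were above 1 (52.5% of all gene pairs) with a median of 1.26, Dlk1 with Mest gave 2.46, and Meg3 with Sgce gave 1.38.

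Other imprinted genes paired with Dlk1 in fibroblasts too. H19 was found in 80.4% of Dlk1-positive and 47.8% of Dlk1-negative fibroblasts, Igf2 in 52.5% against 28.6%, and Cdkn1c in 56.8% against 40.05%. In pericytes the same shares were 56.5% against 56.25% for H19, 18.8% against 21.4% for Igf2, and 34.1% against 39.3% for Cdkn1c. Some other members also paired with these genes in fibroblasts, such as Plagl1 with H19 (75.5% against 53.7%). Others did not, such as Grb10 with H19 (55.0% against 56.0%). In the classes other than fibroblasts, the count of member pairs above 1 was at or below that of all gene pairs, or changed with the thinning. Cardiomyocytes had 10 of 15 pairs above 1 with a median odds ratio of 1.09, where 65.4% of all pairs were above 1. Pericytes had 17 of 36 (median 0.965, all pairs 54.5%) and smooth muscle 14 of 28 (0.999, all pairs 54%). Vascular endothelium had 5 of 15 (0.923, all pairs 53.5%) but 12 of 15 (1.36, all pairs 53.1%) without mitochondrial and haemoglobin counts. Endocardium likewise had 13 of 28 (0.869, all pairs 54.7%) but 11 of 15 (1.30, all pairs 55.5%), so no direction is given for these 2 classes. Whether the fibroblast pairing differs from that in other classes was not tested.

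**Figure D3:**
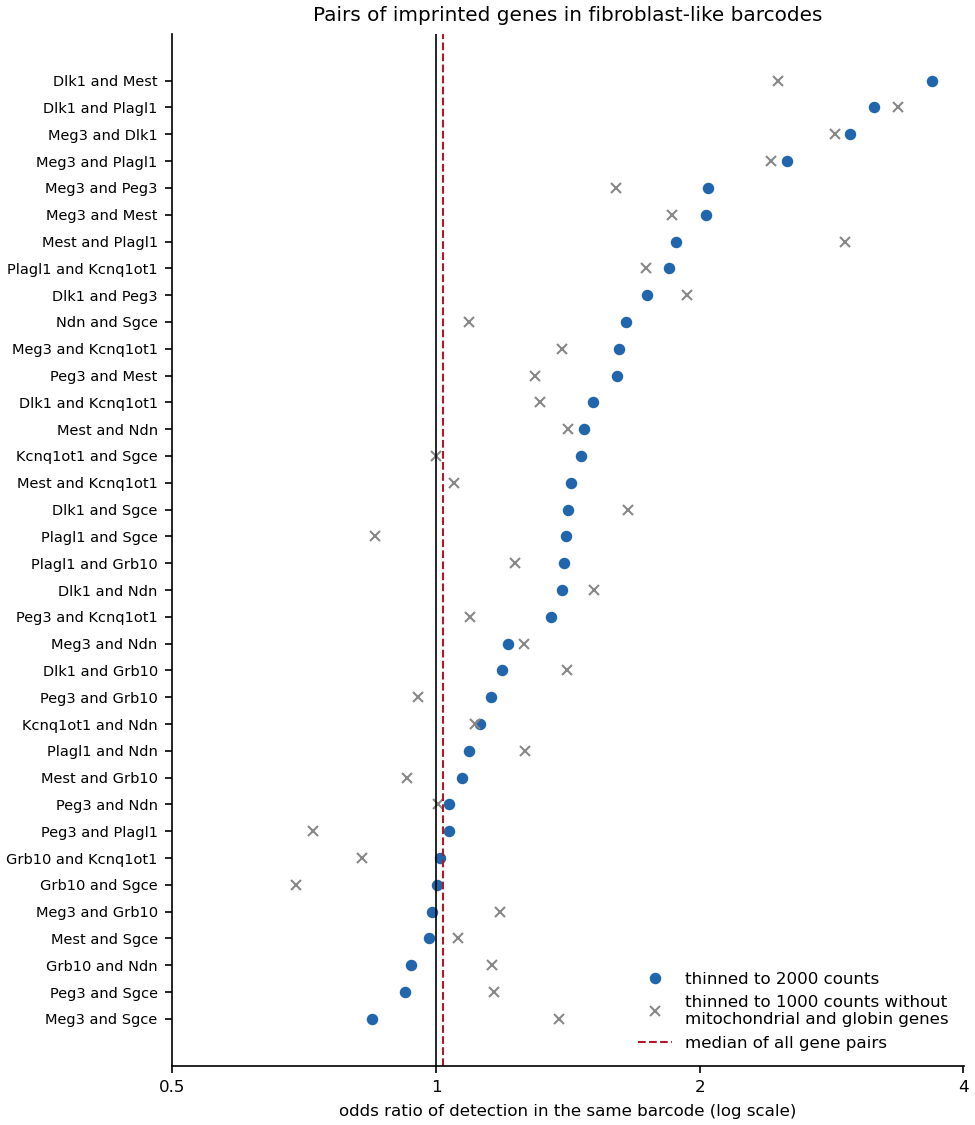
Odds ratio (log axis) of finding 2 members in the same fibroblast barcode, for each of 36 pairs, with barcodes thinned to 2000 counts (filled circles) or to 1000 counts without mitochondrial and haemoglobin genes (crosses); the dashed line is the median of all gene pairs, 1.02. Most filled circles lie above 1, led by Dlk1 with Mest at 3.68.

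Cardiomyocytes were then divided by chamber. This division, and those by Bmp10 and by conduction markers, were added after member values had been seen. Barcodes with at least 10 counts of the 4 markers Myl7, Myl4, Sln (atrial) and Myl2 (ventricular) were called atrial-like when the atrial share was 60% or more (1459 barcodes) and ventricular-like below 20% (3546 barcodes). Mitochondrial genes took a median 21.8% of counts in the former and 40.7% in the latter, so CPM values by chamber, by Bmp10, and by conduction, valve and arterial markers are without mitochondrial and haemoglobin counts. Meg3, Peg3, Mest and Ndn, 4 of the 9 members, were at least 2 times higher in atrial-like barcodes in both technical replicates, and 1, Grb10, was at least 2 times lower. Of 10196 genes tested, 4.59% were higher and 2.81% lower by that rule.

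Peg3 had the widest chamber gap of the members, at 444 and 461 CPM in atrial-like and 69.0 and 66.0 CPM in ventricular-like barcodes, 6.69 times (6.23 to 7.19; 6.44 and 6.98). It was counted in 74.9% of atrial-like and 22.4% of ventricular-like barcodes. Mest stood at 315 and 362 CPM against 109 and 119 CPM, 2.96 times (2.78 to 3.16). Meg3 stood at 138 and 142 CPM against 65.0 and 54.4 CPM, 2.33 times (2.13 to 2.56), and Ndn at 30.8 against 14.4 CPM, 2.14 times. The cardiomyocyte level of Peg3 among the 7 classes thus joined a high atrial-like and a low ventricular-like level.

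Grb10 ran the other way, at 248 and 233 CPM in atrial-like and 667 and 672 CPM in ventricular-like barcodes, a ratio of 0.360 (0.341 to 0.379; 0.372 and 0.347). It was counted in 59.97% and 85.3% of these barcodes. Sgce and Kcnq1ot1 were 1.85 and 1.53 times higher in atrial-like barcodes, and Dlk1 was at 4.48 against 4.51 CPM. Plagl1 had a ratio of 0.67, which turned to 1.31 among barcodes with at most 20% mitochondrial counts, so no direction is given for it. In those barcodes Peg3 was 12.0 times and Mest 4.18 times higher, Meg3 1.51 times higher, and Grb10 had a ratio of 0.626. For comparison, Igf2, H19 and Cdkn1c were 2.15, 2.54 and 2.04 times higher in atrial-like barcodes. At least 3 members were found in 20.9% of atrial-like and 6.63% of ventricular-like barcodes after thinning to 2000 counts, and in 10.8% and 4.62% after thinning to 1000 without mitochondrial and haemoglobin counts.

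**Figure D4:**
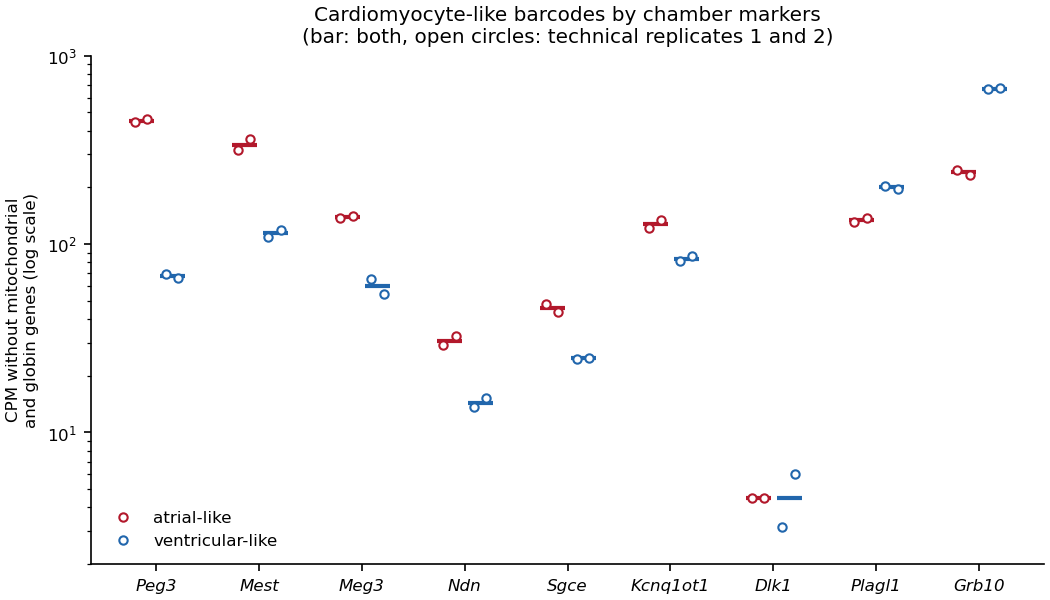
Level of each member in atrial-like (red) and ventricular-like (blue) cardiomyocyte barcodes, as CPM without mitochondrial and haemoglobin counts on a log axis: bars are both technical replicates together and open circles replicates 1 and 2. Peg3, Mest, Meg3 and Ndn are higher in atrial-like barcodes, and Grb10 is higher in ventricular-like barcodes.

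Among atrial-like barcodes, those with a count of Bmp10, a ligand known from the right atrium and trabeculae, were set against those without (618 and 841 barcodes). Mest was at 517 and 608 CPM with Bmp10 and at 172 and 163 CPM without, 3.35 times (3.06 to 3.67; 2.998 and 3.72). It was the only member at least 2 times higher in both technical replicates, a rule that 0.573% of 7678 genes met. Peg3 was even between the 2 sides (1.09 times), and Meg3 was lower with Bmp10 (0.59). Within the atrial-like barcodes, Mest and Peg3 therefore did not share a pattern, although both were high there.

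Meg3 was unevenly spread among cardiomyocytes. Only 710 of 5462 barcodes held it, and 32 barcodes with at least 10 counts held 602 of its 2028 cardiomyocyte counts. Of these 32, 21 were atrial-like and 10 ventricular-like. Of genes picked by inspection of their values, the 32 barcodes held the sinus node factor Shox2 at 132 CPM (in 7 barcodes) against 1.38 in cardiomyocyte barcodes without a Meg3 count, Etv1 at 305 against 42.9, Igfbp5 at 813 against 59.1, and Mirg at 48.9 against 0.327. Gal stood at 707 against 0.262 CPM, from 3 of the barcodes (1761 and 12.5 CPM in technical replicates 1 and 2). Pooled over both technical replicates, markers of the Meg3-rich classes were higher too. Col1a1 stood at 48.9 against 17.7 CPM, Col3a1 at 139 against 33.9 CPM, and the pericyte marker Rgs5 at 135 against 6.84 CPM (in 3 barcodes). In replicates 1 and 2 apart, the 32 barcodes held Col1a1 at 18.9 and 68.7 CPM, Col3a1 at 18.9 and 219, and Rgs5 at 18.9 and 212. The higher collagen values thus came from replicate 2. The part of these markers in the Meg3 counts was not tested. By the summed fibroblast marker counts of a cardiomyocyte barcode, Meg3 was at 52.7 CPM with none, 56.1 with 1 or 2, and 98.3 with 3 or more. These CPM values, unlike those by chamber, include mitochondrial counts. In cardiomyocyte barcodes without any fibroblast marker count, Meg3 stood at 53.8 and 51.3 CPM in the technical replicates. No such division was made by pericyte or smooth muscle markers, and the source of these counts was not tested.

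Pacemaker markers were then used to divide the cardiomyocytes, and only 4 of the 32 Meg3-rich barcodes met this rule. Cardiomyocyte barcodes with at least 2 of the 4 genes Hcn4, Tbx3, Isl1 and Smoc2 numbered 18, with 9 in each technical replicate, below the minimum of 30. Meg3 stood at 1719 and 547 CPM there and at 83.8 and 79.3 CPM in the other cardiomyocyte barcodes, 14.3 times (12.1 to 16.8; 20.5 and 6.89). Without the barcode richest in Meg3, which held 53 counts, the ratio was 10.5 (8.61 to 12.7), and with haemoglobin allowed up to 2% of counts it was 9.06. Meg3 was counted in 11 of the 18 barcodes and in 12.8% of the others. Their median depth was 8930.5 against 6114.5 counts, mitochondrial genes took 17.0% against 36.6%, and the median count of fibroblast markers was 1 against 0. The part of these in the Meg3 value was not tested. Meg3 was the only member at least 2 times higher in both technical replicates, a rule met by 4.05% of 10290 genes. The same rule in the lower direction was met by 12.6% of genes. Dlk1 had no count in the 18 barcodes, and at its low level elsewhere (4.61 CPM) a difference was not detectable at this depth (interval of the ratio 0 to 5.66). Ndn (1.36 and 2.17 times) and Kcnq1ot1 (3.37 and 1.01 times) exceeded 2 times in 1 replicate each. Within atrial-like barcodes the Meg3 ratio was 12.4 over 10 barcodes (20.2 and 5.64), and Peg3 had 0.541.

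Fibroblasts and vascular endothelium were divided in the same manner, again after member values had been seen, and no member differed 2 times in both technical replicates. Fibroblast barcodes with at least 3 counts of the valve and tendon genes Sox9, Scx and Fmod (334) held Dlk1 at 263 CPM, and those with none (376) at 463 CPM. The ratio for Dlk1 was 0.567 (0.649 and 0.491 in the technical replicates) and for Meg3 0.676, where 0.291% of genes were called higher and 0.171% lower. Vascular endothelial barcodes rich in the arterial genes Gja5, Bmx, Hey1 and Efnb2 (102) held Mest at 2253 CPM, and those with none (253) at 2406 CPM, so Mest was level between them. Plagl1 was 1.93 times higher in the arterial-rich barcodes (1.79 and 2.13), where 0.362% of genes were called higher and 0.069% lower. Those barcodes were deeper, at a median 18617.5 against 5489 counts.

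Barcodes with at least 3 counts of 18 cell cycle genes, after thinning to 2000 counts, were compared with the others of their class. A call asked for a 1.5-fold difference in both technical replicates. Of cardiomyocyte barcodes, 430 were cycling by this rule (236 and 194). Meg3 stood at 27.2 CPM in them and 60.3 CPM in the others, a ratio of 0.450 (0.362 to 0.554; 0.362 and 0.562). Kcnq1ot1 was higher, at 101 against 59.5 CPM (1.70; 1.51 to 1.90; 1.72 and 1.67), and so was Sgce, at 29.8 against 19.2 CPM (1.55; 1.24 to 1.91; 1.52 and 1.57). The rule called 13.4% of all genes tested higher and 4.52% lower in cycling cardiomyocyte barcodes, against 2 and 1 of the 9 members. These cardiomyocyte calls were not stable: with haemoglobin allowed up to 2% of counts Meg3 and Sgce were no longer called, and with at most 20% mitochondrial counts Kcnq1ot1 and Sgce were not.

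Meg3 was also lower in cycling fibroblasts. The 223 cycling barcodes held 1512 CPM and the others 2561 CPM, a ratio of 0.590 (0.565 to 0.616; 0.589 and 0.591), where 4.92% of genes were called lower and 6.16% higher. This call held in all 8 alternatives tried. No member was called in the 242 cycling vascular endothelial barcodes, where 3.82% of genes were called higher and 1.12% lower, and the other classes had too few. Cycling barcodes were deeper, with a median 7740 against 6068 counts in cardiomyocytes and 6809 against 5417.5 in fibroblasts. CPM values by cell cycle include mitochondrial counts, which took a median 33.0% in cycling and 37.1% in other cardiomyocyte barcodes. The part of depth, and of conduction-like and atrial-like barcodes, in the cardiomyocyte value was not tested.

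**Figure D5:**
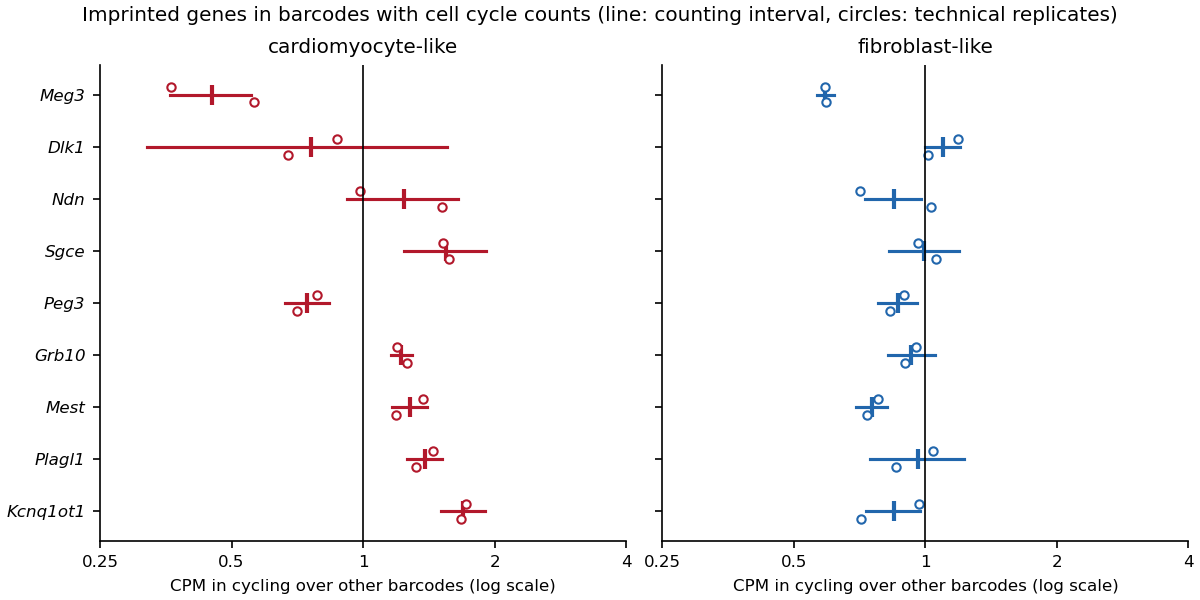
Ratio of CPM in cycling to other barcodes (log axis) for each member in cardiomyocytes and fibroblasts: ticks are both technical replicates together, lines the 95% counting interval, and open circles replicates 1 and 2. Meg3 lies below 1 in cardiomyocytes (0.450) and fibroblasts (0.590), and Kcnq1ot1 and Sgce lie above 1 in cardiomyocytes.

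The genes whose class profile was most like each member were ranked by Pearson r of log2(CPM+10) over the 14 points, among 8542 genes with at least 500 counts. Meg3 was closest to Pth1r (0.98) and Cacnb3 (0.98), Dlk1 to Aspn (0.99) and Ebf2 (0.97), and Ndn to Cyth3 (0.97) and Maged2 (0.95). Mest was closest to Lama4 (0.96) and Fyn (0.95), and Plagl1 to Bmpr2 (0.98) and Phactr2 (0.97). Peg3 was closest to Zfp383 (0.92) and Plekha5 (0.92), Grb10 to Rnf11 (0.98) and Tacc2 (0.98), Kcnq1ot1 to Sec61a1 (0.98) and Shc1 (0.97), and Sgce to Cnn3 (0.98) and Serpinh1 (0.97). Peg3 had the weakest nearest neighbour of the 9, and no member was among the 2 nearest genes of another.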

How the data were processed

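Raw counts per gene and cell barcode were deposited by the authors as 1 table per technical replicate, without normalisation; Cell Ranger 2.1.0 and mm10 are given in the submitters' processing notes. Trypsin digestion took 30 min (37 °C, 6 fractions), and each channel aimed at 6000 to 10000 cells, per the labels' protocols. Whether a count is a molecule or a read, and whether strand was used, is not given in the sources used here. The internal library identifiers of the second table's columns and label differ, so each table was kept with the sample it was deposited under. Of 27999 features, 27645 had a symbol by Ensembl ID in GENCODE vM21.

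Kept barcodes (4596 and 4005, median 5877.5 and 6074 counts) were gated on 18 marker lists, with cuts set after marker counts were seen. Within each technical replicate, the counts of a class were added up and scaled to a total of 1000000 (CPM). A gene was tested for leading a class with at least 20 counts in each replicate there, and led it at 2 times every other class in both. Named genes were all members, the other imprinted genes that led a class, Igf2, H19 and Cdkn1c, and the 2 genes most like each member; other genes named were chosen after their values were seen. For pairs, genes detected in 5% to 95% of thinned barcodes were used, with 0.5 added to each cell of the odds ratio. The conduction markers were used without 1 gene that is not reported here. Members and lists were chosen with earlier results of these data known. With 1 biological sample no test was made and no p-value is given; intervals are exact at 95% (Poisson, Clopper-Pearson, conditional binomial) and cover counting error only. The calling rule was tested on simulated data. Software was pandas 2.3.3, scipy 1.17.1, numpy 2.4.6 and matplotlib 3.10.9 under Python 3.11.15.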

Additional observations from a re-analysis of the deposited data

How the results depend on the processing

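No paired analysis was possible because both libraries belong to 1 group of 1 biological sample. Mest and Plagl1 led their class in all 11 alternatives tried and Kcnq1ot1 in 10 of 11, the exception being the stricter marker gate. The count of all genes leading a class, 1752, was 2637 at 1.5 times the next class and 3518 with no minimum of counts. The 7957 gated barcodes numbered 3467 with at most 20% mitochondrial counts, and 3698 and 4259 in single technical replicates. Over all 7 classes, 23.2% of barcodes held 3 or more members. This share was 24.3% with a minimum of 1000 detected genes, 40.8% with at most 20% mitochondrial counts, 10.1% thinned to 1000 counts, 57.9% with no thinning, and 13.1% thinned to 1000 counts without mitochondrial and haemoglobin genes, the last added after seeing the data. The 4 cycling calls numbered 2 with haemoglobin below 2% of counts, and 5 and 6 in single technical replicates. The atrial-like over ventricular-like ratio of Plagl1, 0.67, was 1.31 with at most 20% mitochondrial counts. The cause of these changes was not tested. Of 193 values for single members or classes under the alternatives, 138 moved by less than their interval and 54 moved further. The remaining 1, this chamber ratio of Plagl1, reversed its direction. Ratios to the next class that lay near 1 crossed it under some settings, with lowest values of 0.748 for Grb10, 0.862 for Meg3, 0.720 for Ndn, 0.983 for Dlk1, 0.989 for Peg3 and 0.959 for Sgce, so which of the highest 2 classes is above the other was not stable for these 6 members. With 131 macrophage and 139 smooth muscle barcodes, low levels such as the 3 counts of Dlk1 in macrophages could not be told from background.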

Other observations

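The 87 barcodes with at least 5% haemoglobin counts, which were left out of the classes, held Mest at 721 CPM, or 129% of its fibroblast level. Meg3 stood there at 10.3% of its fibroblast level and Col1a1 at 8.21%. Of the other members, Plagl1 was at 205%, Grb10 at 98.9%, Sgce at 46.6%, Kcnq1ot1 at 36.9%, Peg3 at 21.6%, Dlk1 at 17.0% and Ndn at 4.27%. The endothelial marker Cdh5 stood at 276 CPM in these barcodes and 7.01 CPM in fibroblasts, and Mest at 2245 CPM in vascular endothelium. The part of endothelial RNA in these barcodes was not tested.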
